A study of Oryza sativa Japonica Group with 12 samples.

Results

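The auxin response and PIN transport genes were followed in the base of the shoot of gs1;2 mutant and wild-type rice seedlings. A gene was taken as a member where its symbol or a synonym, without a leading Os, read IAA, ARF, SAUR or PIN followed by a number, or GH3 followed by a separator and a number. Of 17905 genes read by a probe set with a single gene, 58 were members: 26 IAA, 17 ARF, 1 SAUR, 9 GH3 and 5 PIN genes. These 58 genes were read by 72 probe sets, PIN3a was counted although a letter follows its number, and the probe set with the highest mean stood for a gene that had several. Another 12 genes with such names in the gene table were not analysed here. Numbers in these families differ between naming schemes, and the gene table also lists ARF18 as ARF10, ARF4 as ARF2, ARF12 as ARF8, ARF1 as ARF16, ARF23 as ARF1, IAA13 as IAA1, IAA5 as IAA8 and IAA4 as IAA20.

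Total RNA of the lowest 5 mm of the shoot was hybridised to the Affymetrix Rice Genome Array, whose probe sets each read a transcript. There were 4 groups of 3 arrays: gs1;2 at 11 d, wild type at 11 d, gs1;2 at 7 d and wild type at 7 d. All plants were of the cultivar Nipponbare and grew in hydroponic culture in which 1 mM ammonium was the nitrogen source. The mutant plants were homozygous for gs1;2, a mutation in the gene of cytosolic glutamine synthetase 1;2, which joins ammonium to glutamate. The labels name neither the mutated allele nor how many plants each array holds. The submitters call the arrays of a group biological replicates.

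Auxin is perceived by receptors that, with auxin bound, mark the Aux/IAA proteins for breakdown. Aux/IAA proteins (IAA genes) repress the auxin response factors (ARF genes), which bind the promoters of auxin-responsive genes. Many IAA, SAUR and GH3 genes are themselves induced quickly by auxin, many GH3 enzymes join auxin to amino acids and so lower the free hormone, and PIN proteins carry auxin through membranes and give its flow a direction. At the base of a grass shoot, where leaves, tiller buds and crown roots are formed, this flow is known for its role in bud outgrowth and root formation.

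Arrays of the same group correlated at 0.994 to 0.997 over all probe sets, and the wild-type arrays at 11 d correlated with the other 9 arrays at 0.978 to 0.985. The targeted gene, listed as GLN1-2, read 8.37, 8.65 and 11.44 (log2) on the 11 d arrays labelled mutant, against 12.42 to 12.50 in wild type at 11 d. At 7 d it read 7.65 to 7.80 on the arrays labelled mutant and 12.31 to 12.46 in wild type. The array labelled mutant, 11 d, replicate 3 thus lay nearer to wild type than to the others labelled mutant in this gene, though below every wild-type array. Over all probe sets the 11 d arrays labelled mutant correlated with each other at 0.995 to 0.997. With wild type they correlated at 0.979 to 0.985 at 11 d and 0.987 to 0.991 at 7 d. The number of members called at 11 d and some of the widest differences are also given without replicate 3 of that group. The group ranges, the marker counts and most counts by family include this array. One passage of the labels describes a growth chamber and 18 days of culture for samples 13 to 36, a range that includes the title numbers 13, 14 and 15 of wild type at 11 d. A separate growth condition of that group, if there was one, cannot be told apart from genotype or age. The titles also carry one mark for all 7 d arrays and another for all 11 d arrays, so whatever that mark stands for cannot be told apart from age. The shoot meristem gene OSH1, a marker of the labelled tissue, was not called between the genotypes at 11 d (difference 0.12, limma adjusted p = 0.621). Of the 4 shoot meristem markers, OSH1 among them, 1 was higher and 1 lower in the mutant.

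Markers of other tissues also differed at 11 d between the arrays labelled mutant and wild type. Of 8 green leaf markers, 7 were higher and 0 lower in the mutant; their mean level was 10.06 to 10.35 in the mutant and 9.01 to 9.26 in wild type. Of 8 root markers, 4 were higher and 2 lower, with mean levels of 5.86 to 5.95 in the mutant and 5.46 to 5.56 in wild type. Of 7 seed markers, 0 were higher and 4 lower (4.19 to 4.34 in the mutant, 5.24 to 5.54 in wild type), and the only phloem marker, SUT1, was lower by 1.13 (-1.13). Across all lists, 0 markers stood at a value of 0. At 7 d the green leaf markers averaged 9.37 to 9.58 in the mutant and 9.06 to 9.49 in wild type. Of these lists, 1 green leaf marker (GLK2, 0.45, limma adjusted p = 0.0377) and 1 root marker (YSL15, 0.87, 0.0381) were higher in the mutant at 7 d. None was lower, against 0.787% of all genes higher and 0.464% lower. SUT1 stood at 0.69 (adjusted p = 0.0506) and was not called at 7 d. The part of these tissues in the results at either age was not tested. In whole segments, fewer cells of a type and less RNA per cell cannot be told apart.

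At 11 d, 34 of the 58 members differed between the arrays labelled mutant and wild type, 16 higher and 18 lower in the mutant. A member was called where its adjusted p from limma, over all 57194 probe sets, was under 0.05. This is 58.6% of the members. Of all probe sets 25.9% were called, 12.8% higher and 13.1% lower. Of all genes, each at its brightest probe set, 46.7% were called, 23.9% higher and 22.8% lower, against 27.6% higher and 31.0% lower among the members. The median difference was -0.06 (log2) over the members and 0.02 over all genes. Without the array labelled mutant, 11 d, replicate 3, 30 members were called, 13 higher and 17 lower. Of the 34, 27 kept their call, and IAA6, IAA13 and IAA25 gained one.

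**Figure D1:**
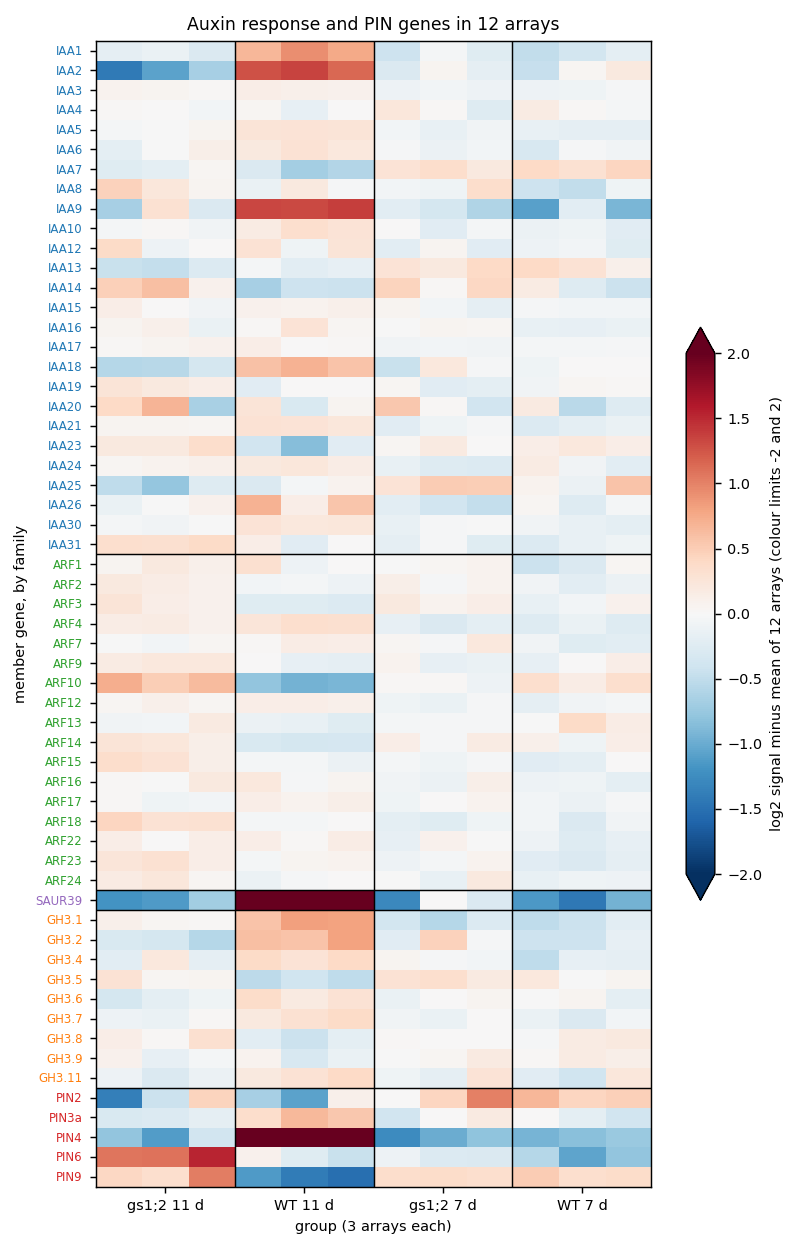
Log2 level of each of the 58 members (rows, coloured by family) on each of the 12 arrays (columns, by group), as the difference from the member's mean over the 12 arrays; red is above that mean and blue below. The wild-type arrays at 11 d lay outside the range of the 9 other arrays in 29 of 58 members.

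The 3 wild-type arrays at 11 d lay outside the range of all 9 other arrays in 29 of the 58 members, above it in 20 and below it in 9. Over all genes this held for 42.2%, with 20.7% above and 21.5% below. The arrays labelled mutant at 11 d lay outside the 9 others in 10 members, against 12.2% of all genes, 6.33% above and 5.92% below. They were above in 8 members, IAA19, IAA31, ARF9, ARF10, ARF15, ARF18, ARF23 and PIN6, and below in 2, IAA2 and IAA13. At 7 d, the mutant stood outside in 1 member (IAA17, below), against 3.22% of all genes, 2.28% above and 0.938% below. Wild type at 7 d stood outside in 5, all below (IAA5, IAA16, ARF7, ARF23 and PIN6), against 10.7% of all genes, 6.68% above and 4.02% below. For IAA16 these readings were 2.75 to 2.79 (log2), and whether they exceed background is not known.

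The PIN genes, which encode auxin carriers of the cell surface or, for PIN5-type proteins in Arabidopsis, of the endoplasmic reticulum, included PIN4 and PIN9, among the widest differences of the members. At 11 d, 2 of 5 were higher in the mutant, 2 were lower and PIN2 was not called. This is 40% each way, against 23.9% of all genes higher and 22.8% lower. PIN4, also listed as PIN5b and PIN5c, read 4.31, 3.98 and 4.71 (log2) on the 11 d arrays labelled mutant, against 7.30, 8.06 and 7.80 in wild type at 11 d. At 7 d it read 3.84, 4.10 and 4.30 in the mutant and 4.17, 4.27 and 4.35 in wild type. The wild-type arrays at 11 d were the only high ones, and the groups did not overlap at 11 d. Without detection calls it is not known whether the other 9 arrays, all under 5 (log2) and below the array medians, read above background, so no fold is given. PIN4 was lower in the mutant at 11 d (-3.38, SE 0.20, limma adjusted p = 5.26e-07), and the difference was -3.57 without the array labelled mutant, 11 d, replicate 3.

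PIN9, whose other name in the gene table is PIN5, is a rice carrier reported in tiller bud outgrowth under ammonium. It read 6.16, 6.08 and 6.76 on the 11 d arrays labelled mutant, against 4.62, 4.35 and 4.23 in wild type at 11 d. At 7 d the readings were 6.10, 6.10 and 6.08 in the mutant and 6.26, 6.08 and 6.11 in wild type. Wild type at 11 d was the only low group, below each of the 9 other arrays. Whether the wild-type readings at 11 d exceed background is not known. PIN9 was higher in the mutant at 11 d (1.94, SE 0.15, limma adjusted p = 3.19e-06), or 1.72 with the array labelled mutant, 11 d, replicate 3 left out.

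PIN6, also listed as PIN5a, was the only PIN gene in which the arrays labelled mutant at 11 d stood above all others. They read 8.68, 8.70 and 9.13, against 7.70, 7.36 and 7.16 in wild type at 11 d. At 7 d the levels were 7.52, 7.34 and 7.33 in the mutant and 7.04, 6.56 and 6.83 in wild type, so the genotypes overlapped at neither age. PIN6 was 2.69-fold higher in the mutant at 11 d (1.43, SE 0.16, limma adjusted p = 3.9e-05), or 1.28 with the array labelled mutant, 11 d, replicate 3 left out. At 7 d its difference of 0.59 (SE 0.16) had the smallest adjusted p of the members, 0.11 by limma, which did not pass.

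PIN3a, listed also as PIN10a and PIN3t, read 7.32, 7.36 and 7.45 on the 11 d arrays labelled mutant, against 7.98, 8.28 and 8.16 in wild type. It read 7.25 to 7.81 in the mutant and 7.25 to 7.63 in wild type at 7 d. On this probe set, wild type at 11 d was again the group apart, here above. The difference at 11 d was -0.76 (SE 0.14, limma adjusted p = 0.00123), and a second probe set of the gene gave -0.49 (adjusted p = 0.00442). On that second probe set, wild type at 11 d (7.39 to 7.78) overlapped with the mutant at 7 d (7.21 to 7.49).

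PIN2, known in roots for carrying auxin back from the tip, had the widest spread of the PIN genes: 4.54, 5.48 and 6.35 on the 11 d arrays labelled mutant, and 5.25, 4.85 and 6.02 in wild type at 11 d. At 7 d it read 5.92, 6.33 and 6.92 in the mutant and 6.57, 6.34 and 6.39 in wild type. The genotypes overlapped at both ages, and the difference at 11 d was 0.09 (SE 0.40, limma adjusted p = 0.915), or -0.36 (adjusted p = 0.556) with the array labelled mutant, 11 d, replicate 3 left out.

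**Figure D2:**
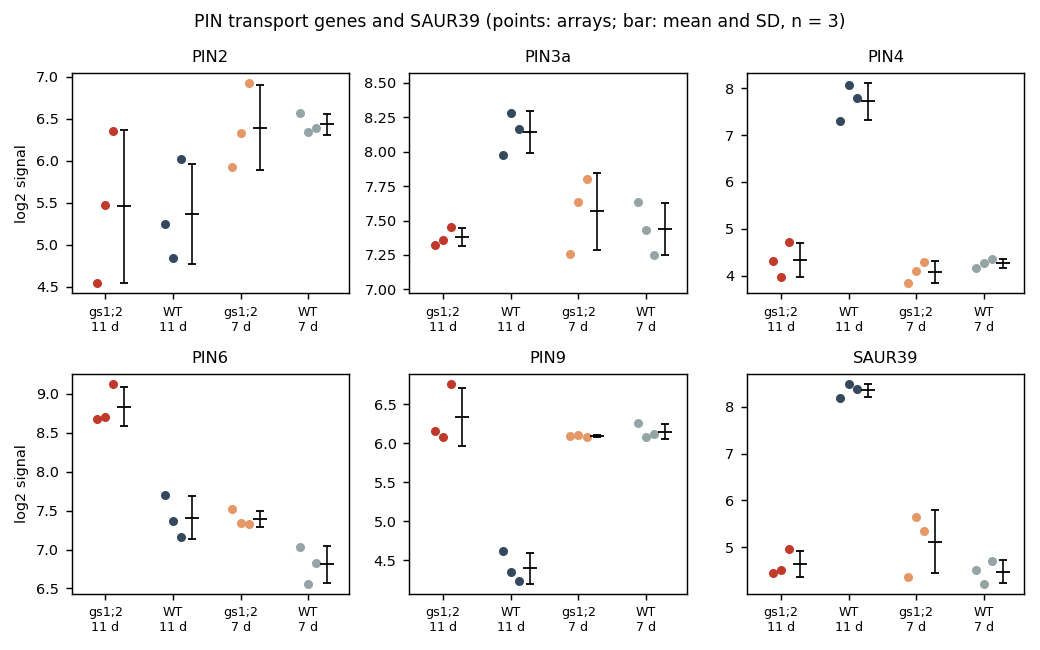
Log2 level of the PIN members and SAUR39 by group, one point per array, with the mean and SD of 3 arrays beside the points (gs1;2 is the mutant, WT wild type). PIN4 and SAUR39 were high in wild type at 11 d (7.30 to 8.06 and 8.19 to 8.48), PIN9 was low there (4.23 to 4.62), and PIN6 was highest on the 11 d arrays labelled mutant (8.68 to 9.13).

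SAUR39, the single SAUR member, has been reported in rice as a negative regulator of auxin synthesis and transport. It read 4.45, 4.51 and 4.95 on the 11 d arrays labelled mutant, against 8.19, 8.48 and 8.37 in wild type at 11 d. At 7 d it read 4.36, 5.65 and 5.35 in the mutant and 4.50, 4.22 and 4.70 in wild type. Wild type at 11 d was the only high group, and the 7 d groups overlapped. The readings under 5 (log2) lie near or below the array medians, and whether they exceed background is not known. SAUR39 was lower in the mutant at 11 d (-3.71, SE 0.26, limma adjusted p = 1.55e-06), or -3.87 with the array labelled mutant, 11 d, replicate 3 left out. At 7 d its difference was 0.65 (SE 0.26), the largest of the members in size, with a limma adjusted p of 0.256. Without the 7 d mutant array replicate 1 it was 1.02 with an adjusted p of 0.0177.

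Among the 9 GH3 genes, whose enzymes join amino acids to auxin or, for some, to another hormone, 6 were lower in the mutant at 11 d, 2 were higher and GH3.9 was not called (median -0.41). Lower were 66.7% and higher 22.2%, against 22.8% and 23.9% of all genes. GH3.2 read 6.45, 6.41 and 6.19 on the 11 d arrays labelled mutant, against 7.35, 7.32 and 7.57 in wild type, and 6.54 to 7.22 in the mutant and 6.34 to 6.59 in wild type at 7 d. GH3.1 read 9.20, 9.15 and 9.13 on the 11 d arrays labelled mutant, against 9.67, 9.92 and 9.91 in wild type, with 8.54 to 8.83 in the mutant and 8.60 to 8.89 in wild type at 7 d. In both genes wild type at 11 d was the highest group and did not overlap with the mutant at that age. The differences at 11 d were -1.06 (SE 0.15, limma adjusted p = 0.000239) for GH3.2 and -0.67 (SE 0.10, adjusted p = 0.000358) for GH3.1.

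The other GH3 genes lower in the mutant differed by less. GH3.6 stood at -0.48, GH3.7 at -0.37, GH3.4 at -0.41 and GH3.11 at -0.47, with limma adjusted p between 0.00257 and 0.041. GH3.7 was called on 1 of its 3 probe sets, and the others gave -0.27 and -0.11 (adjusted p 0.0938 and 0.757). With the array labelled mutant, 11 d, replicate 3 left out, the adjusted p was 0.0847 for GH3.4 and 0.067 for GH3.11. GH3.11 is read by a probe set whose name marks possible cross-hybridisation. GH3.5, also listed as JAR1, joins isoleucine to jasmonate rather than to auxin; it read 8.73, 8.47 and 8.48 on the 11 d arrays labelled mutant, against 7.91, 8.03 and 7.93 in wild type. GH3.8, a rice enzyme known to conjugate auxin, read 8.46, 8.36 and 8.65 on the arrays labelled mutant against 8.11, 7.91 and 8.13 in wild type. Neither gene overlapped between the genotypes at 11 d, and both were higher in the mutant, by 0.60 (SE 0.09, adjusted p = 0.000361) and 0.44 (SE 0.09, adjusted p = 0.00395). GH3.9 had a difference of 0.09 (adjusted p = 0.627) with overlapping groups.

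Of the 26 IAA genes, the repressors, 5 were higher and 9 lower in the mutant at 11 d, and 12 were not called (median -0.11). Higher were 19.2% and lower 34.6%, against 23.9% and 22.8% of all genes. The largest differences were downward. IAA2 read 8.73, 9.07 and 9.48 on the 11 d arrays labelled mutant, against 11.41, 11.48 and 11.29 in wild type at 11 d, and 9.84, 10.19 and 9.95 in the mutant and 9.68, 10.18 and 10.34 in wild type at 7 d. At 11 d the arrays labelled mutant lay below, and the wild-type arrays above, every array at 7 d. IAA2 was 4.94-fold lower in the mutant (-2.30, SE 0.19, limma adjusted p = 3.86e-06), or -2.50 with the array labelled mutant, 11 d, replicate 3 left out.

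IAA9, IAA18 and IAA1 followed. IAA9 read 6.23, 7.21 and 6.61 on the 11 d arrays labelled mutant, against 8.24, 8.22 and 8.29 in wild type (-1.57, SE 0.24, limma adjusted p = 0.000373). IAA18 read 6.73, 6.75 and 6.95 on the arrays labelled mutant against 7.89, 8.00 and 7.87 in wild type (-1.11, SE 0.13, adjusted p = 6.07e-05). IAA1 read 9.86, 9.92 and 9.76 on the arrays labelled mutant against 10.71, 10.97 and 10.80 in wild type (-0.98, SE 0.11, adjusted p = 4.18e-05). In each of these genes wild type at 11 d lay above all 9 other arrays. The remaining IAA genes that were lower were IAA26 at -0.48, IAA10 at -0.30, IAA30 at -0.28, IAA5 at -0.27 and IAA21 at -0.22. IAA10 and IAA21 did not pass with the array labelled mutant, 11 d, replicate 3 left out (adjusted p 0.0567 and 0.0956), and IAA26 did not in 3 of 12 fits with single arrays left out.

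Of the IAA genes that were higher in the mutant at 11 d, IAA14 led. It read 9.36, 9.49 and 8.98 on the 11 d arrays labelled mutant, against 8.23, 8.47 and 8.46 in wild type (0.89, SE 0.17, limma adjusted p = 0.00173). IAA23 read 8.45, 8.44 and 8.60 on the arrays labelled mutant against 7.86, 7.40 and 8.01 in wild type (0.74, SE 0.13, adjusted p = 0.000947). The genotypes did not overlap at 11 d in either gene. IAA7 (0.38), IAA31 (0.38) and IAA19 (0.27) were smaller. Without the array labelled mutant, 11 d, replicate 3, IAA7 and IAA19 were not called (adjusted p 0.0829 and 0.0557), and neither was IAA31 without the 11 d wild-type array replicate 2 (0.28, adjusted p = 0.0592). IAA31 has a second probe set, which read -0.12 (adjusted p = 0.508).

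IAA6, reported in rice in tiller outgrowth and in drought tolerance, read 8.55, 8.74 and 8.87 on the 11 d arrays labelled mutant, against 8.95, 9.04 and 8.96 in wild type. The groups did not overlap, but the difference of -0.26 did not pass (limma adjusted p = 0.0681). It passed at -0.34 (adjusted p = 0.0308) with the array labelled mutant, 11 d, replicate 3 left out. It was named after its values were seen. By mean over the 12 arrays, the brightest IAA probe set was that of IAA3 (12.86) and the dimmest that of IAA16 (2.92), and these were not called at 11 d (-0.06 and -0.10). Levels of different probe sets are not comparable. In 4 members, IAA4, IAA16, IAA20 and ARF13, all group means were under 5 (log2), and 0 of these was called at 11 d. IAA16 and ARF13 were called by age in wild type, and whether their readings exceed background is not known.

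The ARF genes, which encode the transcription factors, were called in a single direction at 11 d. Of 17, 7 were higher in the mutant (41.2%, against 23.9% of all genes), 0 were lower (against 22.8%) and 10 were not called. In either direction 41.2% were called, against 46.7% of all genes, and the median difference was 0.19. ARF10 read 8.08, 7.84 and 7.97 on the 11 d arrays labelled mutant, against 6.56, 6.39 and 6.43 in wild type at 11 d. At 7 d it read 7.37, 7.37 and 7.24 in the mutant and 7.68, 7.49 and 7.68 in wild type. At 11 d the arrays labelled mutant lay above and wild type below every other array. ARF10 was 2.83-fold higher in the mutant at 11 d (1.50, SE 0.09, limma adjusted p = 4.07e-07), or 1.49 with the array labelled mutant, 11 d, replicate 3 left out.

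The other ARF genes called at 11 d were smaller in size. ARF14 read 8.08, 8.05 and 7.93 on the 11 d arrays labelled mutant, against 7.52, 7.47 and 7.48 in wild type (0.53, SE 0.08, limma adjusted p = 0.00042). ARF3 read 9.99, 9.86 and 9.81 on the arrays labelled mutant against 9.49, 9.50 and 9.47 in wild type (0.40, SE 0.08, adjusted p = 0.00214). ARF18 read 10.38, 10.24 and 10.26 on the arrays labelled mutant against 9.92, 9.91 and 9.96 in wild type (0.36, SE 0.08, adjusted p = 0.00577). None of these overlapped between the genotypes at 11 d. ARF15 and ARF2, listed also as ETTIN1 and ETTIN2, stood at 0.32 and 0.21 (limma adjusted p 0.0118 and 0.0431), and ARF9 at 0.31 (0.0267). With single arrays left out, ARF15 passed in 10 of 12 fits, ARF9 in 7 and ARF2 in 5. With the array labelled mutant, 11 d, replicate 3 left out, ARF9 did not pass (adjusted p = 0.0697), and 6 ARF genes were higher and 0 lower. The brightest ARF probe set was that of ARF12 (12.00 over the 12 arrays) and the dimmest that of ARF13 (3.64), and neither was called at 11 d (-0.06 and 0.19).

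**Figure D3:**
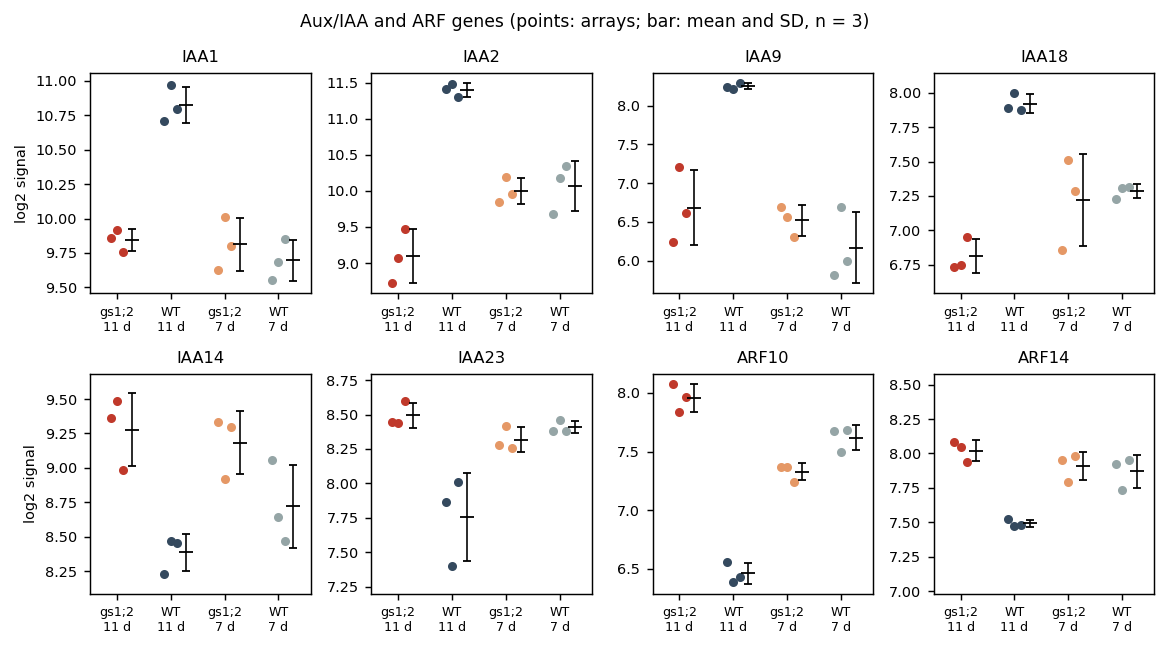
Log2 level of the IAA and ARF genes with the largest called differences at 11 d by group, one point per array, with the mean and SD of 3 arrays beside the points (gs1;2 is the mutant, WT wild type). IAA2 lay at 8.73 to 9.48 on the 11 d arrays labelled mutant against 11.29 to 11.48 in wild type, and ARF10 at 7.84 to 8.08 on the mutant-labelled arrays against 6.39 to 6.56 in wild type.

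At 7 d, 0 of the 58 members were called by limma between mutant and wild type, against 1.25% of all genes (0.787% higher, 0.464% lower) and 0.972% of all probe sets (0.558% higher, 0.414% lower). At an unadjusted p under 0.05 there were 11 members (19.0%), against 21.5% of all genes. The differences lay between -0.29 (ARF10) and 0.65 (SAUR39), with a median of 0.07 over the members and 0.01 over all genes. In 45 of 58 members the 95% interval of the difference lay within 0.5 (log2) of 0. This count was not taken over all genes, so it has no background here. Among the genes with wide differences at 11 d, those at 7 d were -0.19 for PIN4 (adjusted p = 0.702), -0.05 for PIN9 (0.904), -0.07 for IAA2 (0.894), 0.35 for IAA9 (0.505), 0.59 for PIN6 (0.11) and 0.65 for SAUR39 (0.256).

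**Figure D4:**
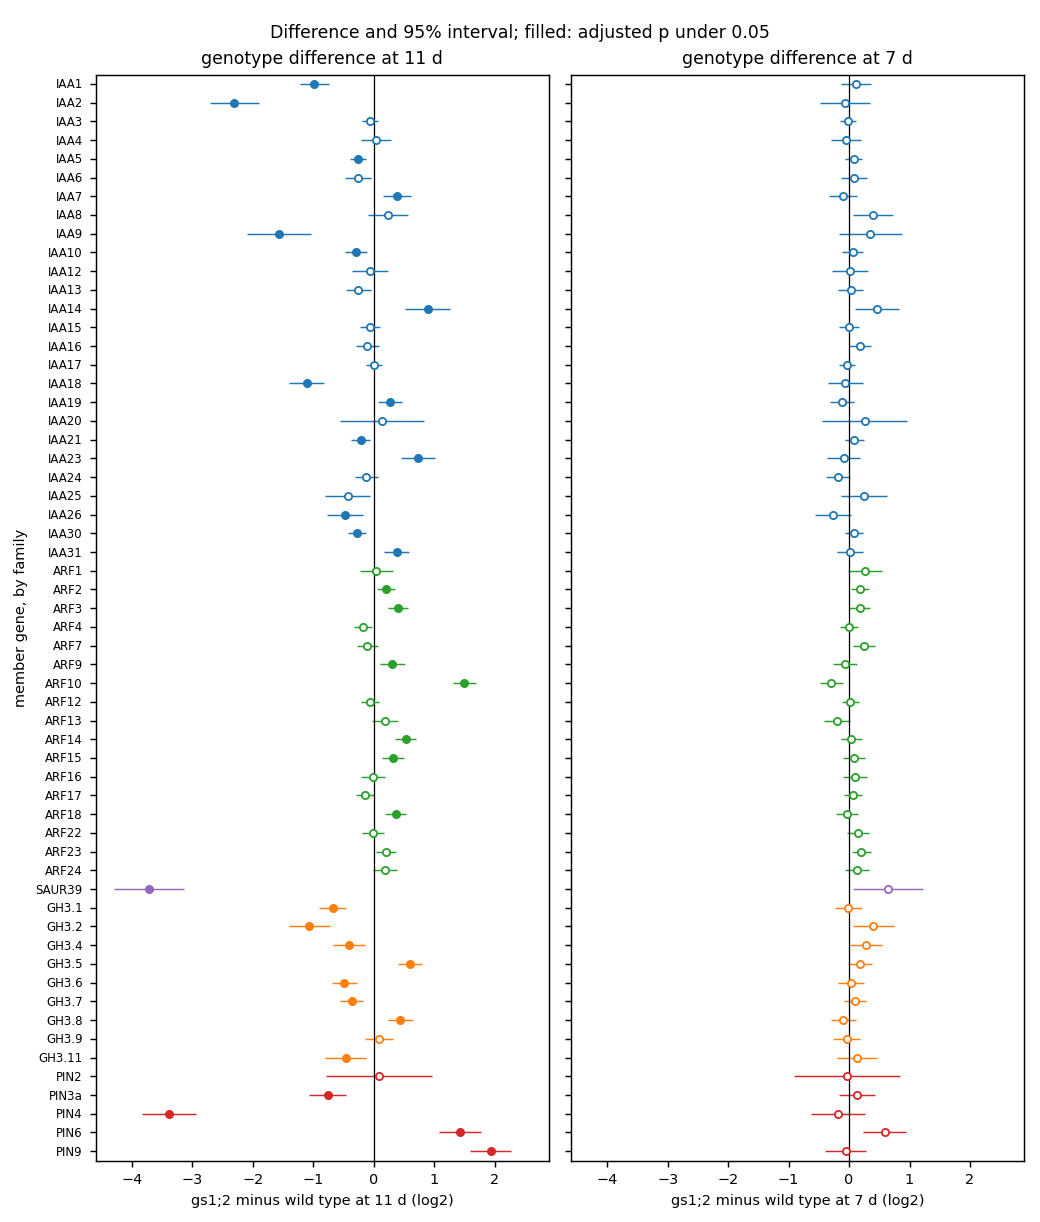
Difference between mutant and wild type (log2) with its 95% interval for each member, at 11 d and at 7 d; filled points had an adjusted p under 0.05. At 11 d 34 points are filled and reach from -3.71 to 1.94, and at 7 d 0 are filled and they reach from -0.29 to 0.65.

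Within wild type, 36 members differed between 11 d and 7 d, 27 higher and 9 lower at 11 d (46.6% and 15.5% of the members). Of all genes 53.8% were called, 25.5% higher and 28.4% lower, and of all probe sets 31.8%, 15% higher and 16.8% lower. The median was 0.22 over the members and -0.03 over all genes. By age in wild type 3 seed markers and SUT1 were higher at 11 d, with 3 root markers higher and 3 lower, and 1 green leaf marker higher and 2 lower. These values share the wild-type arrays at 11 d with the genotype difference at that age and are not independent of it. By family, 12 IAA genes were higher and 3 lower, and 5 ARF genes higher and 3 lower. SAUR39 was higher, 6 GH3 genes were higher and 2 lower, and 3 PIN genes were higher and 1 lower. These counts include IAA16 (higher) and ARF13 (lower), whose group means were all under 5 (log2) and may not exceed background.

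Among the called members, the widest age differences in wild type were those of SAUR39 (3.87, SE 0.26), PIN4 (3.45, SE 0.20) and IAA9 (2.08, SE 0.24) upward. Downward they were those of PIN9 (-1.75, SE 0.15), ARF10 (-1.16, SE 0.09) and IAA7 (-0.89, SE 0.11), each with a limma adjusted p of 4.61e-05 or less. PIN6 was higher at 11 d in wild type by 0.60 (adjusted p = 0.0122). PIN2 lay at -1.06 (SE 0.40, adjusted p = 0.0634) without overlap between the ages in wild type, and did not pass. It passed in 3 of 12 fits with single arrays left out: without the 11 d wild-type array replicate 3 (-1.38, adjusted p = 0.028) and without the 11 d arrays labelled mutant, replicate 1 (0.0238) or replicate 3 (0.0254).

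Within the mutant, 11 members differed between 11 d and 7 d, 7 higher and 4 lower at 11 d, or 12.1% and 6.9% of the members. Of all genes 15.5% were called, 6.51% higher and 8.98% lower, and of all probe sets 8.47%, 3.61% higher and 4.86% lower. The median was 0.09 over the members and -0.01 over all genes. By age in the mutant 3 green leaf markers were higher at 11 d and 0 lower, among them PORA by 1.81, and 1 root marker was higher (NAS1, 2.81) and 1 lower. Without the array labelled mutant, 11 d, replicate 3 there were 12. Among the called members, PIN6 (1.44, SE 0.16), ARF10 (0.63, SE 0.09) and ARF18 (0.51, SE 0.08) were the largest upward. The largest downward among them were IAA25 (-0.94, SE 0.17), IAA2 (-0.90, SE 0.19) and IAA13 (-0.69, SE 0.10). The limma adjusted p of these genes lay between 0.00018 and 0.0105. SAUR39 (-0.48, adjusted p = 0.358), PIN4 (0.26, 0.575) and PIN9 (0.24, 0.461) were not called in the mutant. SAUR39 passed at -0.86 (adjusted p = 0.013) with the 7 d mutant array replicate 1 left out. With the array labelled mutant, 11 d, replicate 3 left out, PIN4 stood at 0.06 and PIN9 at 0.02. PIN2 stood at -0.94 (adjusted p = 0.214). It stood at -1.38 (adjusted p = 0.0429) when the array labelled mutant, 11 d, replicate 3 was left out.

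Age was called in both genotypes for 7 members (12.1%, against 10.2% of all genes). The direction was the same for 5 (8.6%, against 7.32% of all genes): ARF4, GH3.1 and PIN6 were higher and IAA7 and IAA13 lower at 11 d. It was opposite for 2, ARF10 and IAA2 (3.4%, against 2.87% of all genes). With single arrays left out, the age call in the mutant passed in 7 of 12 fits for IAA7 and in 10 for GH3.1. ARF10 was higher by 0.63 in the mutant and lower by 1.16 in wild type (-1.16), and IAA2 was lower by 0.90 in the mutant (-0.90) and higher by 1.33 in wild type. Of the others, 29 were called in wild type and not in the mutant (50% of the members, against 43.7% of all genes). Called in the mutant and not in wild type were 4, ARF15, ARF18, IAA25 and IAA31 (6.9%, against 5.29% of all genes), and the call of ARF15 passed in 3 of the 12 fits with single arrays left out. Whether age differences depended on genotype was tested by the interaction, which a call in only one genotype does not show. Of the 4, ARF18 passed the interaction, and ARF15, IAA25 and IAA31 did not. Of the 29, ARF12, ARF13, ARF22, ARF23, GH3.11, IAA3, IAA6, IAA16 and IAA26 did not pass it.

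**Figure D5:**
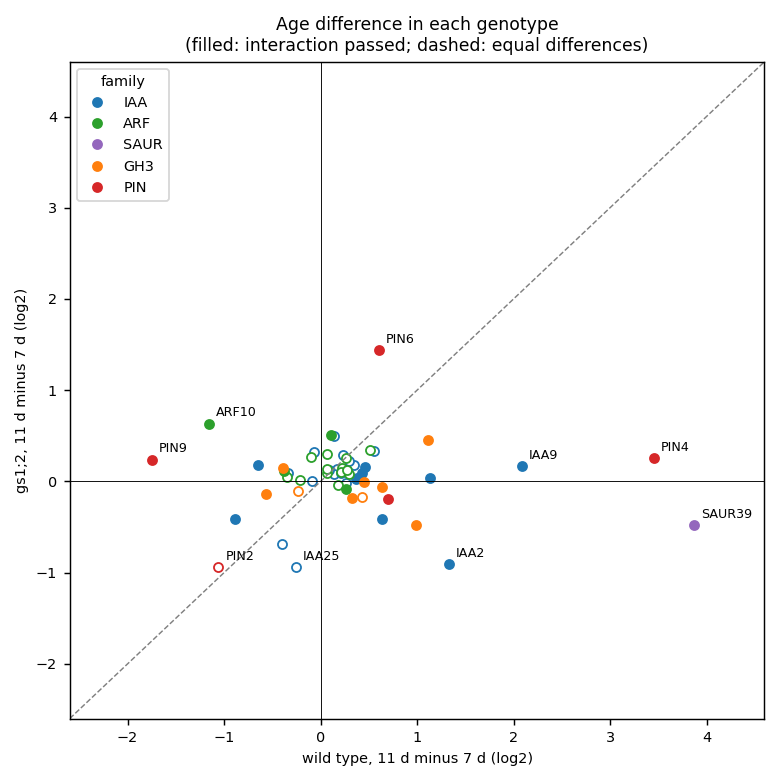
Difference between 11 d and 7 d (log2) in the mutant (vertical axis) against that in wild type (horizontal axis), one point per member; filled points passed the interaction test and the dashed line marks equal differences. SAUR39 (-0.48 and 3.87) and PIN4 (0.26 and 3.45) lie farthest to the right, and PIN6 (1.44 and 0.60) is the highest point.

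The interaction, the genotype difference at 11 d minus that at 7 d, is also the age difference in the mutant minus that in wild type. It was called by limma in 26 of 58 members, 9 higher and 17 lower (44.8%, against 38.2% of all genes, 18.6% higher and 19.6% lower, and 20.6% of all probe sets, 9.87% higher and 10.7% lower). The largest were those of SAUR39 (-4.36, SE 0.37, adjusted p = 2.06e-05), PIN4 (-3.20, SE 0.29, adjusted p = 2.67e-05) and IAA2 (-2.23, SE 0.27, adjusted p = 0.000141) downward. Upward they were those of PIN9 (1.99, SE 0.22, adjusted p = 8.51e-05), ARF10 (1.79, SE 0.12, adjusted p = 8.32e-06) and PIN6 (0.84, SE 0.23, adjusted p = 0.02). By family the interaction was higher in 2 IAA, 3 ARF, 0 SAUR, 2 GH3 and 2 PIN genes, and lower in 8, 1, 1, 5 and 2. With the array labelled mutant, 11 d, replicate 3 left out, 23 members were called, 8 higher and 15 lower. Of the 26, 22 kept their call.

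Other genes of the auxin pathway, from a list by role, were measured for 7 genes. At 11 d 4 were higher and 1 lower in the mutant, and at 7 d 0 were called. Of all genes 23.9% were higher and 22.8% lower at 11 d, and 1.25% were called at 7 d. YUCCA1, of the enzymes that make auxin from indolepyruvate, read 5.16, 5.40 and 5.22 on the 11 d arrays labelled mutant, against 4.48, 4.66 and 4.64 in wild type (0.67, SE 0.10, limma adjusted p = 0.000396). FIB, the aminotransferase that makes indolepyruvate, read 8.96, 8.77 and 8.82 on the arrays labelled mutant against 8.54, 8.42 and 8.45 in wild type (0.38, SE 0.08, adjusted p = 0.00368). In both genes wild type at 11 d lay below all 9 other arrays. The wild-type readings of YUCCA1 at 11 d lay below the array medians, and whether they exceed background is not known. LBD6, a LOB domain gene, stood at 0.30, and the TOPLESS-type co-repressor genes ASPR2 and ASPR1 at 0.22 and -0.22. The probe sets of YUCCA1, LBD6 and ASPR2 have names that mark possible cross-hybridisation. DAO, an auxin oxidase (0.41, adjusted p = 0.0579), and PID, a kinase of PIN proteins (-0.29, adjusted p = 0.0971), were not called.

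By age within the mutant, 1 of these 7 genes was higher at 11 d (DAO, 0.87, limma adjusted p = 0.00269) and 1 lower (YUCCA1, -0.59, adjusted p = 0.00368). Within wild type 2 were higher and 3 lower, with YUCCA1 at -1.11 and FIB at -0.73. Of all genes, 6.51% were higher and 8.98% lower by age in the mutant, and 25.5% and 28.4% in wild type. The interaction was positive for YUCCA1 (0.53), FIB (0.49) and LBD6 (0.44) and negative for PID (-0.59), each with an adjusted p under 0.05. It was called higher in 18.6% and lower in 19.6% of all genes. The receptor genes and the PILS and ABCB carriers of the list were not analysed here.

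Of the 11 members with several probe sets, 4 had 2 or more called at 11 d, 2 had 1, 5 had 0, and 0 had calls in opposite directions. IAA1 stood at -0.98 on its brightest probe set and -0.43 on the other, and IAA23 at 0.74, 0.80 and 0.15 on its 3. The probe sets that stand for IAA17, IAA23 and PIN3a have names that mark possible cross-hybridisation with similar transcripts. In the gene table IAA30 and IAA31 neighbour each other, the only such pair among the members, and they were called in opposite directions at 11 d (-0.28 and 0.38). In total, 45 members were called in at least 1 of the 5 comparisons (77.6%, against 66.5% of all genes) and 13 in 0: IAA4, IAA8, IAA12, IAA15, IAA17, IAA20, IAA24, ARF1, ARF16, ARF17, ARF24, GH3.9 and PIN2.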

How the data were processed

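Transcript levels came from 12 Affymetrix Rice Genome Arrays, 3 per group of genotype and age. The deposited log2 values were made by the authors with RMA, and R 3.1.0 is named beside it, per the submitters' processing notes. Array medians lay between 4.944 and 5.005, so no further normalization was applied. Of 57381 probe sets, 187 controls were left out. Gene names came from GEO's platform annotation (22436 probe sets with 1 gene, 95 with several, 34663 with none listed), with names and neighbours from the gene table of assembly ASM3414082v1. No build is named for the values, so no coordinates are given. All 12 arrays were fitted with limma 3.58.1 (R 4.3.3), 1 mean per group, 8 residual degrees of freedom, default moderation, two-sided, with Benjamini-Hochberg adjustment over 57194 probe sets within each comparison; differences carry the standard error (SE) of the fit. No detection calls were used, so the signal above background is not known, and precision is limited by the number of arrays. The same model was also run on simulated data with independent noise, in which 200 probe sets were changed in the 7 d mutant group only. Its outcome is not given here, and it does not cover the wide differences at 11 d. The members and lists were chosen with earlier results of these data known. Named with values were all PIN and GH3 members, and up to 4 called IAA, ARF and SAUR genes each way at 11 d. So were the 3 largest called members each way by age and interaction, and the brightest and dimmest of each family. Some numbers in the titles are shared between genotypes at 7 d, but deviations of same-numbered arrays correlated at 0.05, so no pairing was used. Alternatives were each array left out, other moderation, fits of fewer groups, a filter on dim probe sets, other scalings, array weights and the second probe set.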

Additional observations from a re-analysis of the deposited data

Results flagged for a closer look

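In 26 members the genotype difference changed with age by limma's interaction test, with an adjusted p under 0.05 over all probe sets, against 38.2% of all genes. The values are the difference at 11 d minus that at 7 d (log2), mutant minus wild type in each. The differences at 11 d rest on the wild-type arrays that stand apart, and on an array labelled mutant that lies nearer to wild type in GLN1-2. With that array left out 22 of the 26 passed, and ARF7, IAA7, IAA10 and IAA21 did not (adjusted p 0.0595, 0.0963, 0.0934 and 0.0889). With single arrays left out, the interaction passed in 2 of 12 fits for IAA10 and IAA21, in 3 for IAA7 and ARF7, in 5 for ARF18 and GH3.5, in 9 for IAA30, in 10 for PIN6 and in 11 for GH3.6. The part of the wild-type arrays was not tested.

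Among the IAA genes the interaction was -2.23 for IAA2, -1.92 for IAA9, -1.10 for IAA1, -1.05 for IAA18, -0.36 for IAA10, -0.35 for IAA30, -0.34 for IAA5 and -0.31 for IAA21, and it was 0.83 for IAA23 and 0.48 for IAA7. IAA2, for example, differed by -2.30 at 11 d and -0.07 at 7 d. Among the ARF genes it was 1.79 for ARF10, 0.49 for ARF14, 0.40 for ARF18 and -0.35 for ARF7. ARF7 was called at neither age by genotype (-0.10 at 11 d and 0.25 at 7 d), while ARF10 differed by 1.50 at 11 d and -0.29 at 7 d.

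SAUR39 had the widest interaction of the members, -4.36. Among the GH3 genes the values were -1.47 for GH3.2, -0.69 for GH3.4, -0.66 for GH3.1, -0.51 for GH3.6 and -0.46 for GH3.7, and 0.53 for GH3.8 and 0.42 for GH3.5. Among the PIN genes they were -3.20 for PIN4, -0.89 for PIN3a, 1.99 for PIN9 and 0.84 for PIN6.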

How the results depend on the processing

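With each array left out in turn, the number of members called was 24 to 34 at 11 d (34 with all arrays), 0 to 1 at 7 d (0), 8 to 13 by age in the mutant (11), 28 to 36 by age in wild type (36) and 20 to 25 for the interaction (26). The call at 7 d was SAUR39 without the mutant 7 d array replicate 1. Under the other settings the counts were 32 to 39 at 11 d, 0 at 7 d, 9 to 16 by age in the mutant, 32 to 39 by age in wild type and 23 to 31 for the interaction. Shares of all genes are not given for these fits, so whether all genes moved alike is not shown. With each array left out, 23 of the 34 members called at 11 d passed in all 12 fits; ARF2, ARF9, ARF15, GH3.4, GH3.11, IAA7, IAA10, IAA19, IAA21, IAA26 and IAA31 did not pass in at least 1, with adjusted p of at most 0.177. IAA19 passed in 2 of the 12 fits, and ARF2, GH3.11 and IAA21 in 5. IAA6, IAA13 and IAA25 gained a call at 11 d without the array labelled mutant, 11 d, replicate 3 (adjusted p 0.0308, 0.0468 and 0.0441), and so did IAA6 without the wild-type 7 d array replicate 1 (0.0419) and IAA25 without replicate 3 of that group (0.0388). By age, 8 of 11 in the mutant and 26 of 36 in wild type passed in all 12, and 17 of 26 for the interaction. The age difference of PIN6 in wild type did not pass without the wild-type arrays 11 d replicate 1 (0.45, adjusted p = 0.0562) or 7 d replicate 2 (0.48, 0.058), nor did its interaction without the wild-type arrays 11 d replicate 3 (0.72, 0.052) or 7 d replicate 1 (0.73, 0.0503).

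By age in the mutant, trend and robust moderation called 16 members, 75% of them higher against 63.6% with default moderation; the cause was not tested. On the second probe set of IAA31 the sign turned, to -0.12 at 11 d and -0.19 by age in the mutant (adjusted p 0.508 and 0.427). A block on the replicate numbers shared at 7 d called 0 members, as the fit without the block did. The fit without the wild-type 11 d arrays, added after seeing the data, called 0 members at 7 d and 10 by age in the mutant. Without detection calls, it is unknown which dim probe sets lie above background.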
